A study of Mus musculus with 6 samples.

Results

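The expression of 4 genes of the subplate and layer 6b, Cplx3, Nxph4, Ctgf (named Ccn2 in current annotation) and Nr4a2, was examined in primary somatosensory cortex of C57BL/6 mice at postnatal day 14. The 4 genes were found by symbol among 47794 genes of 1 deposited table, and all 4 were present. They were chosen by their group means and fold changes in this same table, so the difference between groups is given for them as a description and supports nothing. RNA-seq compared 3 libraries of cortex with a Cre-removable exon 3 of Ctnnb1 together with Nex-Cre (β-cat lox(ex3);Nex-Cre, called Ovp) with 3 libraries of cortex carrying the same floxed allele without Cre (β-cat lox(ex3), called Ctrl). Loss of exon 3 removes the sites that mark β-catenin, the Ctnnb1 product, for degradation. Nex-Cre is inserted at Neurod6 and acts in excitatory neurons of the forebrain, so interneurons, glia and vessels of the same tissue keep the intact allele. Because Ctrl cortex had no Cre, effects of the Cre allele and of β-catenin cannot be told apart. The labels state neither the number of copies of each allele nor whether each library came from a separate animal.

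Subplate neurons are among the first neurons of the cortex to be born. They lie below the cortical plate, receive early thalamic input, and in rodents those that persist after birth form layer 6b, a thin sheet at the border to the white matter. Each of the 4 genes marks these cells but has other sources too. Cplx3 encodes a complexin, a small protein that binds the assembled SNARE complex and tunes vesicle fusion, and neurogliaform interneurons also express it. Nxph4 encodes a neurexophilin, a secreted glycoprotein of a family that binds α-neurexins at synapses. Ctgf encodes a secreted matricellular CCN protein, which is also made by vessel-associated cells and is a target of the YAP and TEAD transcription factors. Nr4a2 encodes the orphan nuclear receptor Nurr1, which also marks the claustrum and belongs to a family of immediate early genes.

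Each gene had 1 deposited value per group. It is a mean over 3 libraries of reads after scaling for depth, here called the scaled read count. These means summed to 18602579 in Ovp cortex and 19016749 in Ctrl cortex. Values of single libraries were recovered as the whole-read combination that gives the printed mean, and are named A, B and C in each group by their scaling factors, which ran from 0.966 to 1.23 in Ovp and from 0.907 to 0.982 in Ctrl libraries. No recovered library can be tied to a replicate number. Slc17a7, a general excitatory neuron marker whose product loads glutamate into synaptic vesicles, was at 30449 in Ovp and 31689 in Ctrl cortex. Markers of neighbouring regions were present as well and varied between libraries. Rgs9, a striatal gene, was at 264, 538 and 708 in Ctrl A, B and C, and Dsp, a dentate gyrus gene, at 340, 216 and 9.93 in the same libraries; both were named after their values were seen. The authors' deposited table holds 30152 tested genes, of which 0 passed an adjusted p of 0.05. Its unadjusted p was under 0.05 for 161 genes, or 0.534%, with 0.328% higher and 0.206% lower in Ovp cortex. On recovered libraries limma, with Benjamini-Hochberg adjustment, called 0 of 10354 genes at an adjusted p of 0.05, and 211 (2.04%) were under 0.05 unadjusted. Neurod6, the site of the Cre insertion, was at 1199 in Ovp and 1942 in Ctrl cortex, and Ctnnb1 at 6391 in Ovp and 7574 in Ctrl cortex. The authors' deposited table gives them p = 5.04e-05 and p = 0.0304. Reads from outside exon 3 enter the Ctnnb1 value, so it does not check the labels.

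The 4 genes lie on 3 chromosomes and none neighbours another (GENCODE annotation, GRCm38). Cplx3 (ENSMUSG00000039714) spans chr9:57599992-57606281 on the minus strand and Nxph4 (ENSMUSG00000040258) chr10:127525473-127534559 on the minus strand. Ctgf (ENSMUSG00000019997) spans chr10:24595442-24598683 on the plus strand. Nr4a2 (ENSMUSG00000026826) spans chr2:57106830-57124003 on the minus strand. Ctgf overlaps Gm15270 on the opposite strand, a noncoding gene at 5.76 in Ovp and 4.60 in Ctrl cortex. The strand setting of the counting is not given in the sources used here, so reads of these overlapping genes cannot be told apart.

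Because stabilised β-catenin acts in the nucleus through TCF and LEF factors, promoters of the members were searched for the letters these factors bind. RefSeq promoter sequences (GRCm38.p6) were found for 2 of the 4 genes, Cplx3 and Nr4a2. The 250 bases before each start are printed 5′ to 3′ on the gene's own strand, with every motif found in capitals. They cover chr9:57606282-57606531 for Cplx3 and chr2:57124004-57124253 for Nr4a2, both on the minus strand.
Cplx3: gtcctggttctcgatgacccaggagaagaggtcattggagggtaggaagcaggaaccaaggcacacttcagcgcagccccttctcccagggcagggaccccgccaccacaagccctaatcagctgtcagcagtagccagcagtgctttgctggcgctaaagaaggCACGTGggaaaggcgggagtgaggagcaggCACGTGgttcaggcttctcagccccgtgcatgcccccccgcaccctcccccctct
Nr4a2: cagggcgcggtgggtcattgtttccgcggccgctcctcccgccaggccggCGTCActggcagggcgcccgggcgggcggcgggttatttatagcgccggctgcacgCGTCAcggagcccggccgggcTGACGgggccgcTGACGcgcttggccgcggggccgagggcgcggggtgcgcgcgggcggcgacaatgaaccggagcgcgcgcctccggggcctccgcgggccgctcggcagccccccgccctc
On either strand, neither sequence held a TCF/LEF core (searched as CTTTGAA, then as CTTTGAT, then as CTTTGTA and then as CTTTGTT), which 14.8% of 32851 promoter windows of this length hold. Nor did either hold the TEAD letters GGAATG or the variant GGAATT, present in 21.7% of windows, or the NR4A response element AAAGGTCA, present in 1.34%. The Cplx3 promoter held the palindromic E-box CACGTG at 2 places, 85 and 55 bases before the start, and 6.02% of windows hold at least 1. The Nr4a2 promoter held 4 copies of the cyclic AMP response element core, TGACG or its reverse complement CGTCA, and 17.8% of windows hold at least 1. None of these copies overlapped another motif. The 2 promoters differed in base composition, with 62.8% G and C and 9 CpG pairs for Cplx3 and 80.0% and 44 for Nr4a2, where the median window had 52.4% and 6. A match is a description of letters, and a missing one says nothing of the factor.

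Cplx3 was at 566, 648 and 604 in Ovp libraries A, B and C, against 402, 456 and 536 in Ctrl libraries A, B and C. The lowest Ovp library thus lay above the highest Ctrl library, Ctrl C. Cplx3 averaged 606 ± 41.1 in Ovp cortex and 465 ± 67.3 in Ctrl cortex (SD, n = 3 each), a ratio of 1.31. Reads behind these values numbered 584 to 695 in Ovp and 395 to 486 in Ctrl libraries. Counting alone would give a spread of 3.92% of the mean in Ovp and 4.80% in Ctrl cortex, where the observed SD was 6.78% in Ovp and 14.5% in Ctrl cortex. The Ctrl libraries therefore differed among themselves by more than counting gives. The log2 fold change was 0.38. The authors' deposited table lists p = 0.00459 (adjusted p = 1), which entered the choice of the gene. A log2 fold change as high was found for 0.824% of the 13228 genes whose mean reached 50. A second whole-read combination for the Ovp mean exists, 1168, 169 and 481, and was set aside because libraries were searched within 2-fold of their mean. Among fully searched Ovp means of 100 to 250, 99.3% of 2377 genes had all 3 libraries inside that window.

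Nxph4 was the least abundant of the 4 genes and had the largest ratio. It was at 101, 124 and 98.3 in Ovp A, B and C, against 63.1, 69.1 and 78.3 in Ctrl A, B and C. All 3 Ovp libraries lay above all 3 Ctrl libraries, with Ovp B highest. The gene averaged 108 ± 14.2 in Ovp cortex and 70.2 ± 7.64 in Ctrl cortex (SD, n = 3 each), a ratio of 1.54 and a log2 fold change of 0.62. The libraries held 95 to 132 reads in Ovp and 62 to 71 in Ctrl cortex. The SD was 13.2% of the mean in Ovp and 10.9% in Ctrl cortex, and counting alone would give 9.29% in Ovp and 12.4% in Ctrl cortex, so the observed spread was near that of counting. The authors' deposited table lists p = 0.00413 (adjusted p = 1), again known when the gene was chosen. Among the 13228 genes whose mean reached 50, 8 had a log2 fold change as high, Nxph4 included.

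Ctgf had a higher group mean in Ovp cortex, but its libraries overlapped. Its means were 429 in Ovp and 363 in Ctrl cortex, a ratio of 1.18 and a log2 fold change of 0.24. The authors' deposited table lists p = 0.284 (adjusted p = 1). The Ctrl libraries A, B and C had 351, 338 and 400. The Ovp mean allowed 2 combinations within 2-fold. With all libraries also within 1.5-fold of the mean only 1 remained, 416, 341 and 532 in Ovp A, B and C, and the other was 664, 332 and 292. Under both, the lowest Ovp library lay inside or below the Ctrl range. On the first combination the SD was 96.3 in Ovp and 32.8 in Ctrl cortex (n = 3 each), and the log2 fold change was 0.06 without Ovp C and 0.38 without Ovp B. In the same range of fully searched Ovp means, 96.3% of genes had all libraries within 1.5-fold.

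Nr4a2 had nearly equal means, 764 in Ovp and 805 in Ctrl cortex. The log2 fold change was -0.07, and the authors' deposited table lists p = 0.721 (adjusted p = 1). Ctrl libraries A, B and C had 851, 820 and 743. For the Ovp mean 3 combinations lay within 2-fold, and the single one within 1.5-fold was 911, 746 and 635 in A, B and C. The others were 557, 1217 and 518, and 1160, 738 and 395. All 3 combinations overlapped the Ctrl libraries and spread beyond them on both sides. On the combination within 1.5-fold the log2 fold change was 0.04 without Ovp C and lay from -0.22 to -0.03 without any other single library.

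**Figure D1:**
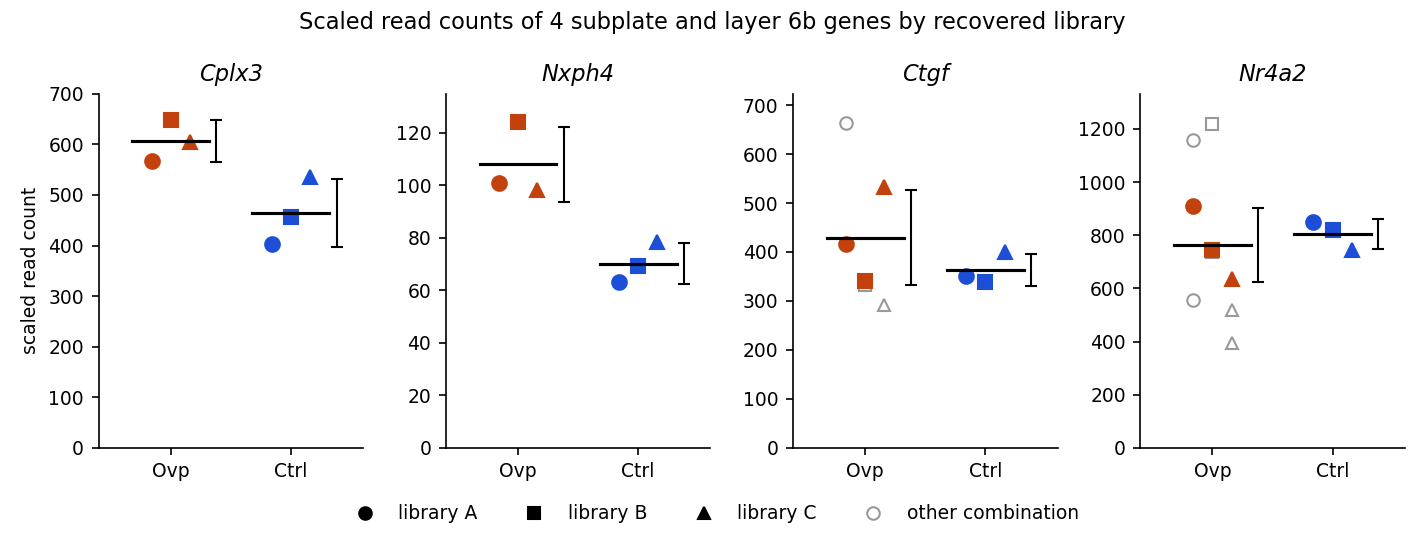
Scaled read counts of Cplx3, Nxph4, Ctgf and Nr4a2 in each recovered library, with Ovp left and Ctrl right. Filled symbols are libraries A (circle), B (square) and C (triangle), lines are group means, bars beside them are ± SD over 3 libraries, and open grey symbols are other whole-read combinations within 2-fold of the mean. Ovp and Ctrl libraries do not overlap for Cplx3 (566 to 648 against 402 to 536) and Nxph4 (98.3 to 124 against 63.1 to 78.3), and overlap for Ctgf and Nr4a2.

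In all, 3 of the 4 genes had the higher mean in Ovp cortex, as had 43.9% of all genes whose mean reached 50. Group means 1.2-fold or more higher in Ovp cortex were found for Cplx3 and Nxph4, and for 2.81% of genes at that level. Libraries without overlap and higher in Ovp cortex were found for the same pair and for 4.3% of 10354 recovered genes whose mean reached 10, while 2.69% had libraries without overlap and lower. These counts follow from how the genes were chosen, and nothing is read from them. In bulk tissue, more cells of a type and more RNA per cell cannot be told apart.

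The order of libraries within a group was not used to choose the genes. Within Ctrl cortex Cplx3 and Nxph4 were both lowest in A and highest in C, an order held by 19.5% of 12685 recovered genes. Within Ovp cortex both were highest in B, as were 4397 of 10392 recovered genes, while Cplx3 was lowest in A and Nxph4 in C. Because the spread of Nxph4 was near that of counting, no shared variation is read from these orders. Ctgf was likewise highest in Ctrl C but lowest in Ctrl B, while Nr4a2 was highest in Ctrl A and lowest in Ctrl C. The Pearson correlation of log2(value + 1) between Nxph4 and Cplx3 over the 6 libraries was 0.951, which includes the difference between groups. Among 4905 recovered genes whose mean reached 100, 52 had a correlation with Nxph4 of at least 0.9. The most alike were Ap1g2 (0.988), Sgf29 (0.987) and Usb1 (0.987). For Cplx3 they were Srsf12 (0.995), Trmt10a (0.988) and Rad52 (0.980), and 59 of 4904 genes reached 0.9. Srsf12, which encodes a splicing factor of the SR family, was at 488, 513 and 505 in Ovp A, B and C, against 402, 436 and 468 in Ctrl A, B and C. Its libraries held the same order as those of Cplx3 over a narrower range. The points of each correlation share library, depth and dissection, and these genes are named for their pattern alone.

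**Figure D2:**
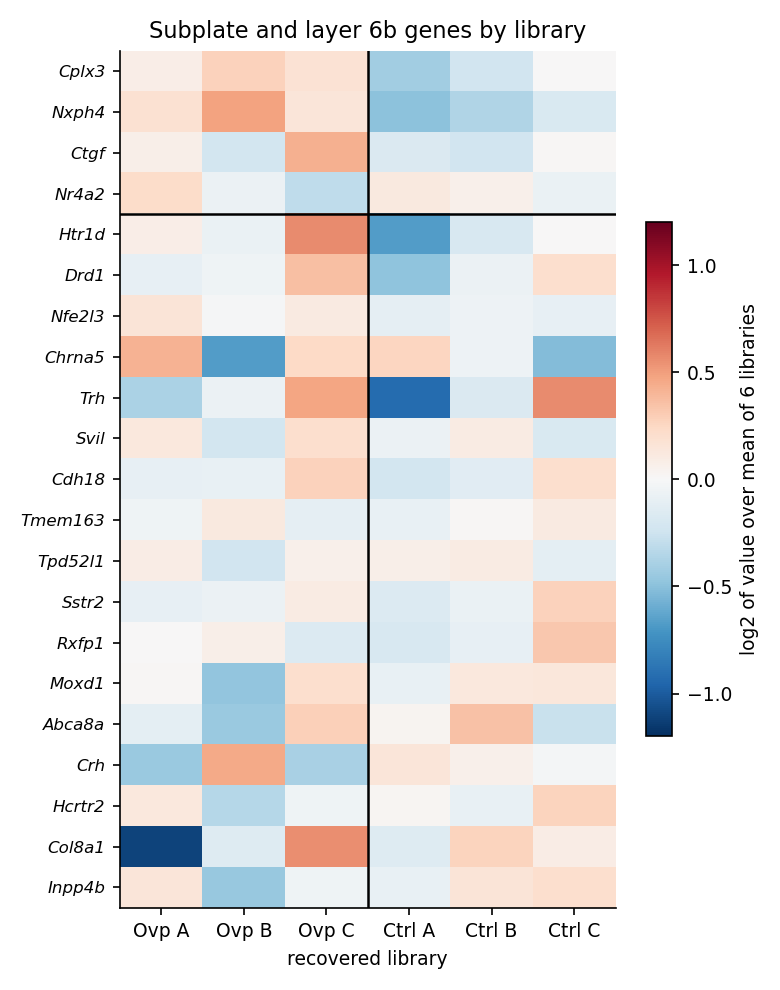
Recovered values of the 4 genes (above the line) and of 17 other subplate and layer 6b genes (below it) in Ovp and Ctrl libraries A, B and C, as log2 of the value over the mean of the 6 libraries (colour scale). Ctgf and Nr4a2 are drawn with the combination within 1.5-fold. Cplx3 and Nxph4 are above their mean in all 3 Ovp libraries, and Trh, Htr1d and Drd1 are lowest in Ctrl A.

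Of 28 other listed genes known from the subplate and layer 6b, all measured, 9 had a higher and 19 a lower mean in Ovp cortex. The highest log2 fold change among them was 0.47, that of the low-count serotonin receptor gene Htr1d, at 32.6, 29.2 and 45.5 in Ovp A, B and C, against 19.3, 27 and 30.9 in Ctrl A, B and C. Its groups overlapped. No difference between the 4 genes and this list was tested. The authors' deposited table gives 0 of the 28 an adjusted p under 0.05, and 1 an unadjusted p under it. By limma, 0 of the 17 recovered genes passed and 0 were under 0.05 unadjusted. The list's median log2 fold change was -0.04, against -0.01 over all tested genes. Among the 21 whose mean reached 100, 5 were higher and 16 lower, where 42.2% of 11645 such genes were higher. Of these 21, 0 were 1.2-fold or more higher, against 1.55% of such genes, and 1 was as much lower, against 1.12%. The median over the 17 recovered genes was -0.04, and it was 0.05 without Ovp B and -0.09 without Ctrl A, so its sign rests on single libraries.

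The gene with an unadjusted p under 0.05 was Adra2a, which encodes an α2 adrenergic receptor. Adra2a was at 548 in Ovp and 658 in Ctrl cortex, and the authors' deposited table lists p = 0.0476 (adjusted p = 1). Among listed genes with means of 100 or more it had the lowest ratio, and Inpp4b, an inositol phosphatase gene, the next lowest, at 137, 90.4 and 119 in Ovp A, B and C, against 116, 137 and 142 in Ctrl A, B and C. At the same level the highest ratios belonged to Drd1 and Lpar1. Drd1, a dopamine receptor gene active in layer 6b and in striatum, was at 287, 296 and 393 in Ovp A, B and C, against 219, 292 and 353 in Ctrl A, B and C. Its groups overlapped, with the lowest value in Ctrl A. Lpar1, a lysophosphatidic acid receptor gene also expressed in oligodendrocytes, had means of 683 in Ovp and 615 in Ctrl cortex. The most abundant listed genes had close means, with Serpini1, which encodes neuroserpin, at 3638 in Ovp and 3926 in Ctrl cortex, and Ndn, the imprinted gene of necdin, at 3408 in Ovp and 3374 in Ctrl cortex.

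Moxd1 and Tmem163, 2 markers widely used for the mouse subplate, are named after their values were seen. Moxd1 was at 128, 91.3 and 146 in Ovp A, B and C, against 119, 138 and 139 in Ctrl A, B and C. Tmem163 was at 510, 574 and 488 in Ovp A, B and C, against 496, 531 and 568 in Ctrl A, B and C. Both overlapped between groups. Of the 17 listed genes recovered in all 6 libraries with a mean of 10 or more, 1 had Ovp libraries that all lay above its Ctrl libraries, against 4.3% of all recovered genes. It was Nfe2l3, at 82.5 in Ovp and 73.2 in Ctrl cortex. For the listed genes without recovered Ovp libraries, overlap was not analysed here.

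**Figure D3:**
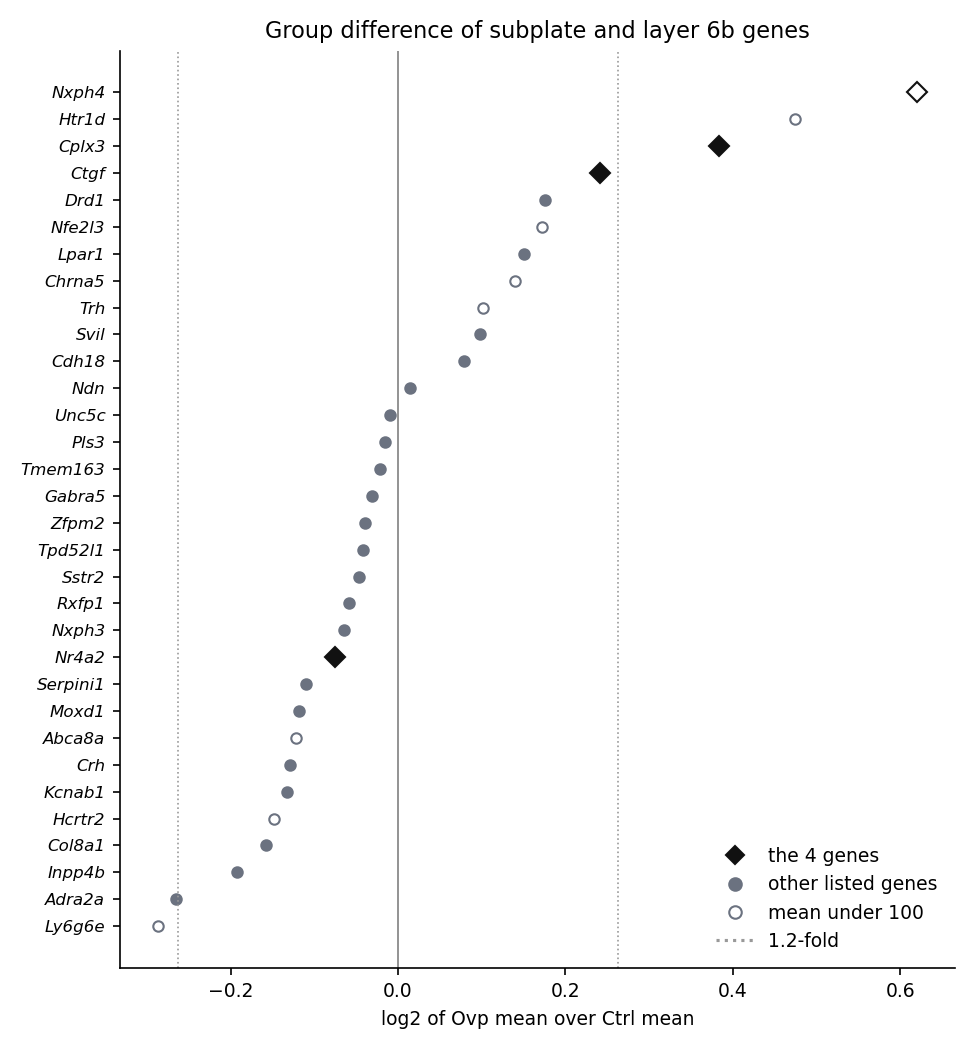
Log2 of the Ovp mean over the Ctrl mean (x axis) for the 4 genes (diamonds) and 28 other subplate and layer 6b genes (circles), sorted by value. Open symbols have a mean under 100 and dotted lines mark 1.2-fold. Nxph4 at 0.62 and Cplx3 at 0.38 lie beyond the upper line with the low-count gene Htr1d, and most other genes lie between the lines.

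The order of Ctrl libraries seen for Cplx3 and Nxph4 was common among the listed genes. Of 22 other subplate and layer 6b genes recovered in Ctrl cortex, 11 were lowest in A and highest in C, against 19.5% of 12685 recovered genes. The same held for 4 of 8 layer 6 corticothalamic markers and for 5 of 5 striatal markers. In Ovp cortex, C was the highest library for 9 of 17 other subplate and layer 6b genes, against 3116 of 10392 recovered genes. B, the highest library for Cplx3 and Nxph4, was the highest for 3 of the 17, against 4397 of the 10392. Genes of a library share its dissection and depth, so these counts are descriptions. Without Ctrl A the log2 fold change was 0.29 for Cplx3 and 0.55 for Nxph4.

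Within their families, Cplx3 had the largest ratio of the 3 complexins whose means reached 100. Cplx4, with scaled counts of only 1.55 in Ovp and 1.08 in Ctrl cortex, had a higher log2 fold change, 0.525. Nxph4, whose own mean was under 100, alone of 4 neurexophilins was higher in Ovp cortex. Cplx3 and Nxph4 were chosen by their fold changes, so nothing is read from their place in their families. Levels are compared as the group mean per kilobase of annotated exon. The complexins Cplx1 and Cplx2, which serve most brain synapses, were far above Cplx3. Cplx2 was at 6675 per kilobase in Ovp and 6377 in Ctrl cortex, Cplx1 at 4721 in Ovp and 5064 in Ctrl cortex, and Cplx3 at 205 in Ovp and 157 in Ctrl cortex. Cplx4, known from the retina, was at 0.797 per kilobase in Ovp and 0.554 in Ctrl cortex. The log2 fold changes of Cplx1 and Cplx2 were -0.10 and 0.07, against 0.38 for Cplx3. Of 10 partners of complexin in the release machinery, 2 were higher and 8 lower, with a median of -0.02. The authors' deposited table gives none of them an unadjusted p under 0.05. Syt1, the calcium sensor of release, was at 34185 in Ovp and 36195 in Ctrl cortex, and the SNARE gene Snap25 at 27879 in Ovp and 28554 in Ctrl cortex.

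Among neurexophilins, Nxph3, itself on the list of other subplate and layer 6b genes, was most abundant at 327 per kilobase in Ovp and 342 in Ctrl cortex, followed by the interneuron gene Nxph1 at 144 in Ovp and 153 in Ctrl cortex. Nxph4 was at 64.4 per kilobase in Ovp and 41.9 in Ctrl cortex, and Nxph2 at 23.7 in Ovp and 23.9 in Ctrl cortex. The log2 fold changes of Nxph1, Nxph2 and Nxph3 were -0.09, -0.01 and -0.07. Of the neurexin genes, whose α forms bind neurexophilins, Nrxn2 was at 8102 in Ovp and 8712 in Ctrl cortex and Nrxn3 at 6048 in Ovp and 6458 in Ctrl cortex.

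Of the 6 CCN genes, 4 had higher and 2 lower Ovp means. Ccn3, the most abundant, was at 1028 per kilobase in Ovp and 1184 in Ctrl cortex, and Ctgf was next at 150 in Ovp and 127 in Ctrl cortex. Ccn1, another YAP and TEAD target, was at 54.6 per kilobase in Ovp and 51.9 in Ctrl cortex. Ccn4, a Wnt-responsive gene, was at 15.2 per kilobase in Ovp and 14.4 in Ctrl cortex, and Ccn6 at 8.22 in Ovp and 6.08 in Ctrl cortex. Ccn5 rested on few reads, with scaled counts of 0, 1.88 and 2.07 in Ovp A, B and C, against 5.09, 4.32 and 14.3 in Ctrl A, B and C. Beside Cplx3 and Nxph4 it was the 1 family member under 0.05 unadjusted, and the authors' deposited table lists p = 0.0343 (adjusted p = 1). Of 18 YAP and TEAD targets, Ccn1 among them, 8 were higher and 10 lower, with a median log2 fold change of -0.03. The authors' deposited table gives none of the 18 an unadjusted p under 0.05. The most abundant were Asap1, at 3683 in Ovp and 4255 in Ctrl cortex, and Arhgef17, at 3413 in Ovp and 3604 in Ctrl cortex. Among 14 genes of YAP, TEAD and the Hippo core the median was 0.02, with Nf2 at 2886 in Ovp and 2966 in Ctrl cortex and the kinase gene Lats1 at 1178 in Ovp and 1085 in Ctrl cortex.

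All 3 NR4A genes had lower Ovp means, Nr4a3 the most so with a log2 fold change of -0.26. Nr4a1 was at 494 per kilobase in Ovp and 521 in Ctrl cortex, Nr4a2 at 188 in Ovp and 198 in Ctrl cortex, and Nr4a3 at 170 in Ovp and 203 in Ctrl cortex. Among 20 activity-induced genes, with Nr4a1 and Nr4a3 among them, 7 were higher and 13 lower, with a median log2 fold change of -0.09. Egr1, a zinc finger factor, was at 6228 in Ovp and 6782 in Ctrl cortex, and Homer1, a postsynaptic scaffold gene, at 4552 in Ovp and 4741 in Ctrl cortex. The authors' deposited table gives none of the 20 an unadjusted p under 0.05.

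**Figure D4:**
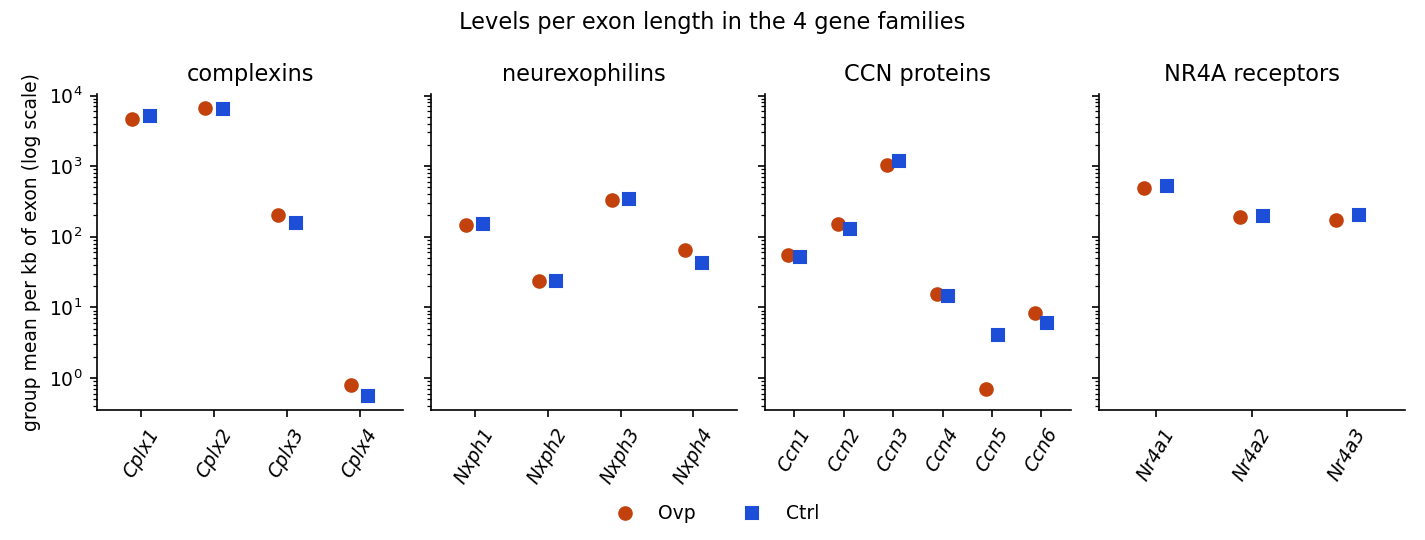
Group means per kilobase of annotated exon (log scale) for the complexins, neurexophilins, CCN genes (Ccn2 is Ctgf) and NR4A genes, with Ovp as circles left of Ctrl squares. Cplx3 is at 205 per kilobase in Ovp and 157 in Ctrl cortex, far below Cplx1 and Cplx2, and Nxph4 at 64.4 in Ovp and 41.9 in Ctrl cortex is between Nxph1 and Nxph2.

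Markers of the cells and layers around the subplate are given beside Cplx3 and Nxph4, and their part in the higher values was not tested. Striatal markers were higher in Ovp cortex for 9 of 10 genes, with a median log2 fold change of 0.30 and summed means of 11827 in Ovp and 11057 in Ctrl cortex. The most abundant of them were Foxp1, at 4131 in Ovp and 4110 in Ctrl cortex, and Pde10a, the 1 lower gene, at 2255 in Ovp and 2303 in Ctrl cortex. Of the 9 whose mean reached 100, 4 were 1.2-fold or more higher, against 1.55% of all such genes. Named after their values were seen, these were Adora2a, Drd2, Rgs9 and Ppp1r1b, with log2 fold changes of 0.50, 0.36, 0.36 and 0.35. Ctrl A, B and C had 108, 267 and 287 for Adora2a, 51.9, 88.6 and 123.5 for Drd2, and 264, 538 and 708 for Rgs9. Ctrl A was thus far below Ctrl B and C for these genes, and their ratios depend on this library. Single libraries of Ppp1r1b were not recovered. Isl1, a low-count gene named likewise, was at 9.78, 14.1 and 16.6 in Ovp A, B and C, against 7.13, 8.64 and 7.72 in Ctrl A, B and C. Its groups did not overlap, as was so with Ovp higher for 4.3% of 10354 recovered genes. Over the 3 recovered striatal markers the sum per library ran from 377 to 526 in Ovp and from 340 to 505 in Ctrl cortex, so the groups overlapped. Oligodendrocyte and white matter markers, which border layer 6b, were higher for 9 of 12 genes with a median of 0.09. Mbp, a myelin gene, was at 57327 in Ovp and 52980 in Ctrl cortex. Over 3 recovered members the sum ran from 800 to 1096 in Ovp and from 911 to 1030 in Ctrl cortex. Layer 6 corticothalamic markers, the neurons just above layer 6b, were higher for 8 of 12 with a median of 0.06. Tbr1, a deep-layer transcription factor gene, was at 2847 in Ovp and 2946 in Ctrl cortex, and Hs3st4 at 1859 in Ovp and 1691 in Ctrl cortex. Of the 11 layer 6 markers whose mean reached 100, 1 was 1.2-fold or more higher and 0 as much lower. It was Col12a1, named after its values were seen, at 502 in Ovp and 385 in Ctrl cortex. Its log2 fold change was 0.38, as for Cplx3, and its Ovp libraries were not recovered. Its Ctrl libraries A, B and C had 261.7, 425.5 and 466.5, so this ratio too depends on the low Ctrl A. The 5 recovered members summed to 1249 to 1559 in Ovp and 1161 to 1374 in Ctrl libraries. The authors' deposited table gives no gene of these 3 lists an unadjusted p under 0.05. Among genes whose mean reached 100, other lists also held some 1.2-fold or more apart. Of hippocampal markers 2 of 6 were lower and of meningeal markers 2 of 8, with 0 higher in each. Over all such genes 1.12% were as much lower. Of the 20 activity-induced genes, 3 were lower and 1 was higher by this limit.

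Other neuronal lists had more lower than higher means. Layer 5 markers were lower for 9 of 12 (median -0.10), with Bcl11b at 1886 in Ovp and 1937 in Ctrl cortex and Parm1 at 1586 in Ovp and 1724 in Ctrl cortex. Upper-layer markers were lower for 12 of 14 (median -0.13), with Cux2 at 3603 in Ovp and 3902 in Ctrl cortex and Plxnd1 at 3695 in Ovp and 3787 in Ctrl cortex. The upper-layer marker Rspo1, a secreted Wnt agonist gene, was at 39.9, 32 and 31.0 in Ovp A, B and C, against 52.9, 58.3 and 46.3 in Ctrl A, B and C, and the authors' deposited table lists p = 0.0379 (adjusted p = 1). Neurogliaform interneuron markers, of interest because these cells express Cplx3, were lower for 11 of 12 (median -0.12). Their most abundant genes encode enzymes of GABA synthesis, Gad1 at 3780 in Ovp and 4149 in Ctrl cortex and Gad2 at 3646 in Ovp and 3976 in Ctrl cortex. Other interneurons make GABA as well, so the count over this list is not specific to neurogliaform cells. Lamp5, a gene of this list named after its values were seen, was at 3248 in Ovp and 3913 in Ctrl cortex. In bulk tissue it is not read as specific to neurogliaform cells either. Of 11 general excitatory neuron markers 10 were lower (median -0.06), Neurod6 among them, with Camk2a at 63088 in Ovp and 66769 in Ctrl cortex and Nrgn at 36893 in Ovp and 37820 in Ctrl cortex.

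Claustral markers, which bear on Nr4a2, were higher for 5 of 9 measured genes, with a median of 0.01. Gng2 was at 5926 in Ovp and 6139 in Ctrl cortex and Gnb4 at 1530 in Ovp and 1641 in Ctrl cortex. In this list Slc17a6, a vesicular glutamate transporter gene that also marks thalamus, was at 476, 442 and 426 in Ovp A, B and C, against 649, 484 and 619 in Ctrl A, B and C. All its Ovp libraries lay below its Ctrl libraries, as was so for 2.69% of 10354 recovered genes. Of the 5 recovered genes of this list it was the 1 without overlap. The authors' deposited table lists p = 0.0111 (adjusted p = 1) for Slc17a6. Vessel and mural markers, which bear on Ctgf, were higher for 8 and lower for 8 of 16 (median 0.00). Rgs5, a pericyte gene, was at 4191 in Ovp and 4207 in Ctrl cortex and Flt1, an endothelial receptor gene, at 1235 in Ovp and 1153 in Ctrl cortex. Over 8 recovered vessel markers the sums were 1630, 2391 and 2473 in Ovp A, B and C, and 2158, 2206 and 2303 in Ctrl A, B and C. The lowest sum was thus in Ovp A and the highest in Ovp C. Ctgf was lowest in Ovp B and highest in Ovp C on the combination within 1.5-fold, and lowest in Ovp C and highest in Ovp A on the other. Meningeal markers were lower for 8 of 10 (median -0.06), with Igf2 at 1835 in Ovp and 2057 in Ctrl cortex and Col1a2 at 1010 in Ovp and 1030 in Ctrl cortex.

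The remaining lists hold markers of thalamus, hippocampus and choroid plexus. In bulk tissue, expression of such genes within cortex and tissue carried over from those regions cannot be told apart. Thalamic markers had a median of -0.04, with Rora at 1387 in Ovp and 1498 in Ctrl cortex and Plekhg1 at 712 in Ovp and 725 in Ctrl cortex, while Gbx2, which defines thalamic neurons early on, had a mean of 0.899 in Ovp cortex and was listed at 0 in Ctrl cortex. Hippocampal markers had a median of -0.20, with Wfs1 at 1525 in Ovp and 1942 in Ctrl cortex and Prox1 at 962 in Ovp and 834 in Ctrl cortex. Choroid plexus markers had a median of -0.18, with Ttr at 97.8, 170 and 97.3 in Ovp A, B and C, against 76.4, 713 and 79.4 in Ctrl A, B and C, and Kl at 58.0 in Ovp and 63.6 in Ctrl cortex. Ctrl B thus held most of the Ttr signal, and it was the middle Ctrl library for Cplx3 and Nxph4.

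**Figure D5:**
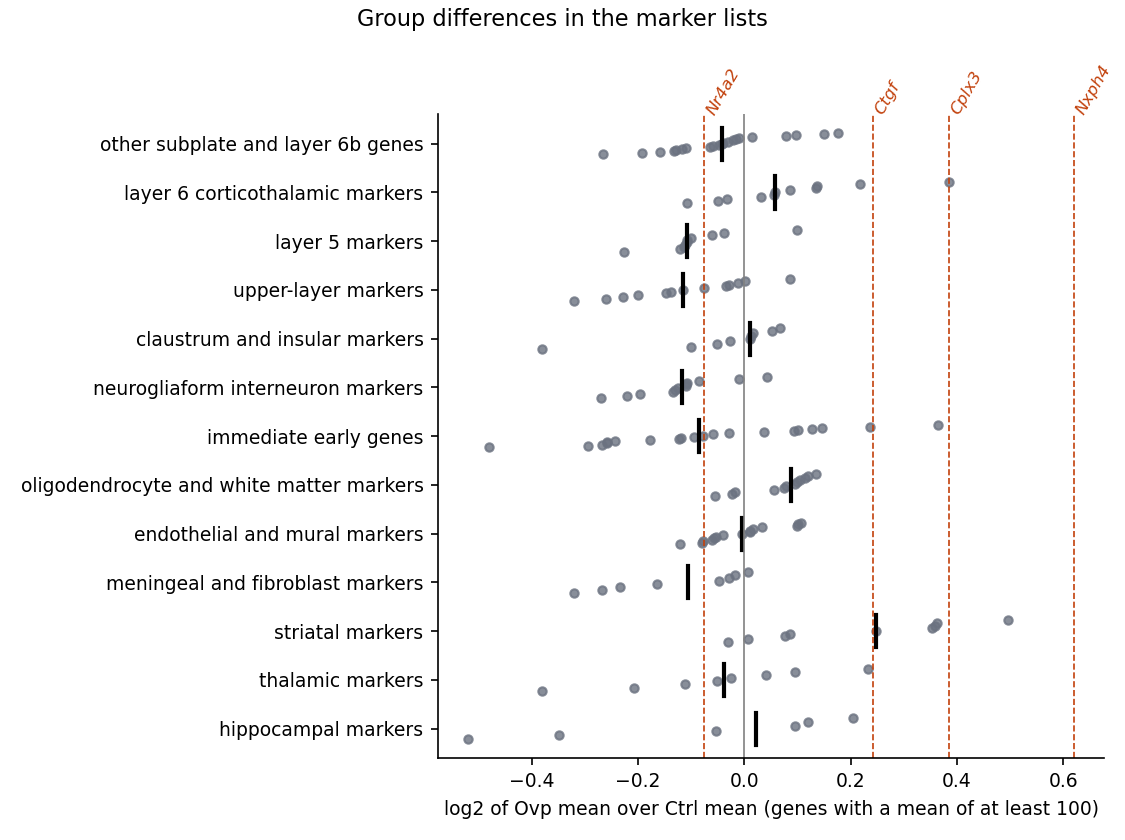
Log2 of the Ovp mean over the Ctrl mean for genes whose mean reached 100 in 13 lists (grey points, black bar at the median), with dashed lines at the values of Nr4a2, Ctgf, Cplx3 and Nxph4. Striatal markers have the highest median of these lists. Nxph4, at 0.62, has itself a mean under 100, and listed genes under that level, such as Isl1 at 0.78, are not drawn.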

How the data were processed

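RNA had been extracted with Trizol and sequenced after TruSeq library preparation, per the labels' protocols. The submitters' processing notes name the aligners Bowtie2 2.0.6 and TopHat2 2.0.9. Not given in the sources used here are the read counter, genome build, scaling and differential test. Per the file headers and values, the authors deposited 1 signal value per gene and group, the mean of scaled read counts over 3 libraries, beside its log2 fold change and p-values, raw and adjusted. A symbol was found for 46488 of 47069 Ensembl IDs. The members and the 25 gene lists (245 measured genes) were chosen with earlier results of these data known.

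Whole reads of each library were recovered from the group means up to 1000, allowing 1.02 times the rounding error of the last printed digit and, above 500 in Ctrl and 250 in Ovp, within 2-fold of the mean. Exactly 1 combination was found for 89.85% of 24203 Ovp means and 99.92% of 23575 Ctrl means. On data simulated with these scaling factors, 89.62% of 23560 Ovp means and 100% of 23286 Ctrl means gave 1 combination, and 100% of those in each group were right. The simulated libraries had a small spread, the same for every gene, so libraries outside the 2-fold window were hardly tested. Among fully searched real means of 100 to 250, 16 of 2377 Ovp genes and 15 of 2496 Ctrl genes had a library outside it. limma 3.58.1 (R 4.3.3) with a trended prior variance tested log2(value + 1) of the 10354 genes recovered in all 6 libraries whose mean reached 10, or 60.6% of all genes at that level. In a simulation of this comparison on 10306 genes it called 74.0% of 146 genes changed 2-fold. That simulation had the same small spread for every gene. Changes under 2-fold were not simulated, so the share called does not hold for them.

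Cplx3 was recovered within the 2-fold window and Nxph4 without any window. Ctgf and Nr4a2 had several combinations in Ovp cortex and were left out of the limma fit. The spread between libraries, which any p-value rests on, may be technical. Named genes were the 4 members, Ctnnb1, Neurod6, all members of their 4 families, listed genes with an unadjusted p under 0.05, the 2 most abundant genes of each list, the 2 highest and 2 lowest fold changes of the other subplate genes, and the 3 genes most alike to each recovered member. Some genes that this rule names are not reported here. Slc17a7, Rgs9, Adora2a, Drd2, Ppp1r1b, Isl1, Dsp, Lamp5, Moxd1, Tmem163, Nfe2l3, Htr1d, Trh, Col12a1 and Gbx2 were named after their values were seen. Alternatives were other scalings, pseudocounts, filters and fold limits, and leaving out each library.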

Additional observations from a re-analysis of the deposited data

How the results depend on the processing

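Depth limits Nxph4 most, with 62 to 132 reads per library, and single Ovp libraries of Ctgf and Nr4a2 rest on choosing the combination within 1.5-fold. No paired analysis was possible because the deposited columns and the recovered libraries carry no replicate numbers. With 1 library left out, the log2 fold change ran from 0.290 to 0.499 for Cplx3, 0.506 to 0.706 for Nxph4, 0.058 to 0.383 for Ctgf and -0.220 to 0.042 for Nr4a2, and 3 or 4 of the 4 genes were higher in Ovp cortex. Setting the median log2 ratio (-0.0175 over genes whose mean reached 100) to 0, or equal sums, moved the 4 values by less than the spread between libraries. Among other subplate and layer 6b genes whose mean reached 100, 2 were higher and 3 lower at 1.1-fold, and 0 were lower at 1.5-fold or with the median ratio set to 0. With a mean of at least 10, 1 was higher at 1.2-fold. The median of 17 recovered genes, an alternative added after seeing the data, ran from -0.089 to 0.052 with 1 library left out. By limma 0 genes passed an adjusted p of 0.05 under every alternative run, and the number with an unadjusted p under 0.05 was 729 with no filter on the mean, 72 with a mean of at least 100 and from 147 without Ctrl A to 380 without Ctrl C.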
